A study of Mus musculus with 16 samples.

Results

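Tuft cells are rare chemosensory cells of the gut epithelium, and the 9 genes followed here mark them: *Dclk1*, *Trpm5*, *Pou2f3*, *Avil*, *Alox5ap*, *Ltc4s*, *Sh2d6*, *Rgs13* and *Hpgds*. The genes were taken by symbol, and their TPM, a relative level corrected for transcript length, were summed over the listed transcripts of each mouse. Of the 9 genes, 8 were matched among 22396 gene symbols, through 10 transcripts, and *Sh2d6*, an SH2-domain adaptor gene, was not matched, so its level is not analysed here. A tuft cell senses the contents of the gut lumen by a pathway shared with taste cells, in which a G protein and a phospholipase release calcium and the cation channel TRPM5 opens. It answers with IL-25 and with lipid mediators, cysteinyl leukotrienes and prostaglandin D2, and so takes part in type 2 immunity. The transcription factor POU2F3 is needed for the lineage to form. The enzymes of lipid mediator synthesis are also made by macrophages and mast cells, so the members were read beside leukocyte genes, among them *Cd52*, a surface protein of lymphocytes and myeloid cells, and *Cd68*, a lysosomal protein of macrophages.

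RNA was measured in EpCAM+ cells sorted from the distal colon of 16 mice, which were 8 weeks old by the study's methods. All mice carried loxP-flanked *Tnfr2* alleles (Tnfr2-f/f), and the animals labelled knockout also carried Vil1::Cre, a recombinase under the villin promoter that acts in intestinal epithelium. Tnfr2 is the TNF receptor gene named *Tnfrsf1b* in the tables. There were 3 controls (Tnfr2-f/f) and 4 labelled knockouts (Vil1::Cre;Tnfr2-f/f) after dextran sulfate sodium (DSS), which injures the colonic epithelium, and 4 controls and 5 labelled knockouts on water. By the labels DSS was given at 3% for 6 days and every mouse was dissected on day 12. The study's methods differ from the labels on the DSS concentration and on the day for uninjured mice, and describe a separation of injured from unaffected colon before digestion. The 7 DSS mice were all female, from cages c (2 mice) and d (5 mice). On water, cage a held 4 males and cage b held 5 females, so cage and sex were the same split, and no cage held both treatments, so treatment and cage cannot be told apart.

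*Epcam* was at 894 to 1017 TPM after DSS and 566 to 712 TPM on water, and the epithelial keratin gene *Krt8* at 1552 to 2906 and 1949 to 2811 TPM. The water samples also held much leukocyte RNA, with the macrophage gene *Lyz2* at 468 to 1060 TPM and 6 B and plasma cell genes summing to 482 to 14270 TPM, against 10.2 to 30.6 and 8.26 to 459 TPM after DSS, so the sorted water samples were not epithelial RNA alone. *Tnfrsf1b* itself did not separate the genotypes. It was at 13.3 to 22.2 TPM in the DSS controls and 13.5 to 27.0 TPM in the DSS labelled knockouts (exact two-sided permutation p = 0.629), and at 11.1 to 15.5 and 9.23 to 14.8 TPM in the water groups (exact p = 0.198). The sum covers the whole transcript, so the loss of 1 exon need not lower it, and these levels do not check the genotype labels. The 2 tables, one for each treatment, were treated as possibly scaled separately. Factors for a common median-of-ratios scale of the 16 mice were 1.13 to 1.24 after DSS and 0.905 to 0.940 on water, and what set them apart was not tested. Tests were therefore made within a table, and levels set across the 2 tables carry no test.

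Gene starts of the members are shown for *Trpm5*, *Avil* and *Rgs13*, whose pairwise correlations were positive in both tables, and for *Hpgds*, whose correlations with them were negative on water. POU factors bind the octamer ATGCAAAT, and this word and its first 7 letters ATGCAAA were searched on both strands in the 250 bases before the RefSeq start (GRCm38.p6) of 7 of the 9 members (*Sh2d6* included, and all but *Pou2f3* and *Alox5ap*), *Dclk1* with a pair of starts. The octamer occurred in 1.60% and the 7 letters, which every octamer contains, in 4.12% of 32851 windows of this length. Among the members the octamer was found only before *Hpgds*, and the 7 letters also before *Avil*, where they occur once on each strand. Capitals mark the matches, and a match is a description of the letters, not a binding site.
Trpm5, chr7:143094643-143094892, minus strand: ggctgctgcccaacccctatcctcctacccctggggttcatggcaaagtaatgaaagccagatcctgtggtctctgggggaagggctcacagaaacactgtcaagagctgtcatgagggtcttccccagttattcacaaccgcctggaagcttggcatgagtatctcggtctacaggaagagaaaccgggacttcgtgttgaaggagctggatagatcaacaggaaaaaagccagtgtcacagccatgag
Avil, chr10:127000459-127000708, plus strand: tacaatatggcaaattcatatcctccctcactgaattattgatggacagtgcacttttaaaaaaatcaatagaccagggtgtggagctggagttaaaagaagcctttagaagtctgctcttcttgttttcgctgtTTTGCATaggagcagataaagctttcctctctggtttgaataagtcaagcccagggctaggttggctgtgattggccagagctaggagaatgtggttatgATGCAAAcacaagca
Rgs13, chr1:144177373-144177622, minus strand: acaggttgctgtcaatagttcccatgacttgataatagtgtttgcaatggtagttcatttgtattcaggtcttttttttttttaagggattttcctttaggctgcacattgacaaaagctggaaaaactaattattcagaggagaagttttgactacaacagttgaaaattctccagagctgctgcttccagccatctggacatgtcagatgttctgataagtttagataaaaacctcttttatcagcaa
Hpgds, chr6:65144884-65144980, minus strand, first 97 bases of the window: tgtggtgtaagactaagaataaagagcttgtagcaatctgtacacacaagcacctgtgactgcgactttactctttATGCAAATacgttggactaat
The *Hpgds* octamer begins 174 bases before the RefSeq start, and in the GENCODE M21 annotation, whose gene start lies further upstream, it begins at base 5 of the gene.

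*Pou2f3* (chr9:43123939-43210369, GRCm38, minus strand), the transcription factor of the lineage, was a low-level gene. On water it was listed at 0, 1.01, 1.34 and 0 TPM in the 4 controls and at 3.75, 3.74, 1.51, 1.23 and 3.14 TPM in the 5 labelled knockouts. After DSS it was at under 0.001, 1.07 and 5.37 TPM in the controls and at 0.534, 5.13, 4.35 and 2.62 TPM in the labelled knockouts. On water the controls lay in the lower part of the range and 1 of them overlapped the labelled knockouts, and after DSS the genotypes overlapped throughout. The log2(TPM + 1) difference, labelled knockout minus control, was 1.25 ± 0.37 (SE) on water (limma adjusted p = 0.865) and 0.64 ± 0.70 after DSS (limma adjusted p = 1.00). The latter was 0.0161 without DSS control 1 and 1.35 without DSS control 3. The exact permutation p of the TPM on water was 0.0476, where 4 mice against 5 can reach 0.00794. The water difference had the same sign in both cages, 1.63 in cage a (2 controls, 2 labelled knockouts) and 1.01 in cage b (2 and 3).

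*Trpm5* (chr7:143069153-143094642, minus strand), the cation channel of the sensing pathway, ranged widely within every group. It was at 1.14, 0.513 and 11.9 TPM in the DSS controls and at 1.81, 6.03, 3.67 and 3.24 TPM in the DSS labelled knockouts. On water it was at 6.67, 1.77, 3.85 and 1.80 TPM in the controls and at 7.76, 9.96, 1.08, 1.28 and 5.99 TPM in the labelled knockouts. DSS control 3 held the highest value of the 16 mice and DSS control 2 the lowest, and all 4 groups overlapped. The genotype difference on the log2(TPM + 1) scale was 0.36 ± 0.72 after DSS (exact permutation p = 0.886) and 0.28 ± 0.58 on water (exact p = 0.460). Without DSS control 3 the first was 1.31 (limma adjusted p = 0.751). On water the level differed by cage, with a median of 7.22 TPM in cage a (3.85 to 9.96) and 1.77 TPM in cage b (1.08 to 5.99).

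*Avil* (chr10:127000709-127020994, plus strand) encodes advillin, an actin-binding protein of the microvilli that give the tuft cell its name. It was at 5.34, 6.75 and 19.7 TPM in the DSS controls and at 7.81, 12.7, 10.7 and 5.71 TPM in the DSS labelled knockouts. In the water controls it was at 6.61, 3.21, 7.02 and 6.71 TPM, and in the water labelled knockouts at 11.7, 12.6, 6.73, 3.91 and 9.01 TPM. The groups overlapped, with DSS control 3 again the highest. The genotype difference was -0.03 ± 0.43 after DSS and 0.46 ± 0.33 on water (log2(TPM + 1) ± SE), with adjusted p of 1.00 and 0.865 by limma.

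*Rgs13* (chr1:144138654-144177372, minus strand), a regulator of G protein signalling that germinal centre B cells and mast cells also make, was the member with the highest mean level after DSS. It was at 11.2, 10.4 and 16.4 TPM in the DSS controls and at 4.60, 27.0, 22.1 and 7.03 TPM in the DSS labelled knockouts. On water it was at 6.12, 1.58, 4.76 and 2.42 TPM in the controls and at 8.42, 15.5, 7.84, 1.87 and 10.6 TPM in the labelled knockouts. Every DSS control lay above every water control, while the labelled knockouts of the treatments overlapped. On water 4 of 5 labelled knockouts lay above the controls, with a genotype difference of 0.97 ± 0.50, exact permutation p = 0.0952 and an adjusted p of 0.865 by limma. Markers of those other cells were uneven. The mast cell genes *Fcer1a* and *Ms4a2* and the germinal centre gene *Mef2b* were at 0 in every mouse, and *Tpsab1* and *Cpa3* reached 0.259 and 1.39 TPM. Of the other mast cell genes *Hdc* had a median of 4.18 TPM and *Mcpt1* and *Mcpt2* reached 11.4 and 8.17 TPM after DSS, and *Cma1* reached 9.24 TPM and *Kit* had a median of 8.00 TPM on water. Of the other germinal centre genes *Bcl6* was at 1.90 to 5.62 TPM and *Fas* at 3.65 to 10.6 TPM over all mice. The summed TPM of the 12 mast cell genes was 6.93 to 30.0 after DSS and 10.9 to 27.0 on water. *Kit* had the highest mean of the 12 on water, 8.46 TPM, and with markers this uneven the sum is not a mast cell level. The part of mast cells and germinal centre B cells in the *Rgs13* level was not tested. The TPM of *Rgs13* was divided between 2 transcripts that exchanged places between mice, so only the sum is used.

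*Dclk1* (chr3:55242364-55539068, plus strand), a kinase gene widely used to mark tuft cells, was hardly detected. DSS control 3 was at 0.794 TPM, DSS labelled knockout 4 at 1.01 TPM and water labelled knockout 5 at 1.55 TPM. The other 13 mice were listed at 0.0506 TPM or less, and the gene stayed under the mean of 1 TPM that a gene had to reach to be tested. Only 1 of the 15 annotated transcripts of the gene was listed, so RNA assigned to the others is not in these values. The depth of the libraries is also not known from TPM, so an absence cannot be told from a level too low to be counted.

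*Alox5ap* (chr5:149264767-149288153, plus strand) encodes FLAP, which hands arachidonic acid to 5-lipoxygenase at the start of leukotriene synthesis, and it was the member whose level separated the treatments. It was at 5.52, 2.37 and 6.08 TPM in the DSS controls and at 2.41, 5.81, 6.88 and 2.00 TPM in the DSS labelled knockouts. On water it was at 16.3, 9.06, 15.0 and 16.2 TPM in the controls and at 22.2, 9.67, 11.4, 14.8 and 13.0 TPM in the labelled knockouts. Every DSS mouse lay below every water mouse, and the genotypes overlapped within each treatment. The genotype difference was -0.15 ± 0.43 after DSS and -0.01 ± 0.25 on water on the log2(TPM + 1) scale.

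*Ltc4s* (chr11:50236461-50238616, minus strand), the gene of leukotriene C4 synthase, which makes the first of the cysteinyl leukotrienes, was listed at 0 in 3 water mice. It was at 11.2, 0, 9.88 and 15.1 TPM in the water controls and at 7.86, 12.4, 6.97, 0 and 0 TPM in the water labelled knockouts. After DSS it was at 0.551, 3.33 and 12.8 TPM in the controls and at 1.26, 5.06, 4.89 and 1.05 TPM in the labelled knockouts. The 3 zeros fell in cage b, in mice where other members were measured. Among genes averaging 5 TPM or more on water, 389 of 6902 (5.64%) were under 0.001 TPM in some mouse. That share counts genes with any such mouse, while *Ltc4s* had 3. Every stretch of 31 bases in the listed *Ltc4s* transcript (649 bases, 5 exons) is shared with another annotated transcript of the gene. For *Trpm5* 99.1% are shared, and its lowest value on water was 1.08 TPM. The reason for the zeros was not tested. The genotype difference of *Ltc4s* was -0.34 ± 0.76 after DSS and -0.79 ± 1.08 on water.

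*Hpgds* (chr6:65117293-65144908, minus strand), the gene of the prostaglandin D2 synthase first found in blood cells, varied little among the water controls. It was at 3.40, 5.43 and 6.42 TPM in the DSS controls and at 2.17, 7.66, 5.62 and 4.06 TPM in the DSS labelled knockouts. On water it was at 7.44, 8.71, 7.73 and 8.26 TPM in the controls and at 5.56, 5.16, 8.20, 10.0 and 7.92 TPM in the labelled knockouts. The DSS controls lay below the water controls, and the labelled knockouts overlapped. The genotype difference was -0.11 ± 0.36 after DSS and -0.14 ± 0.18 on water.

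**Figure D1:**
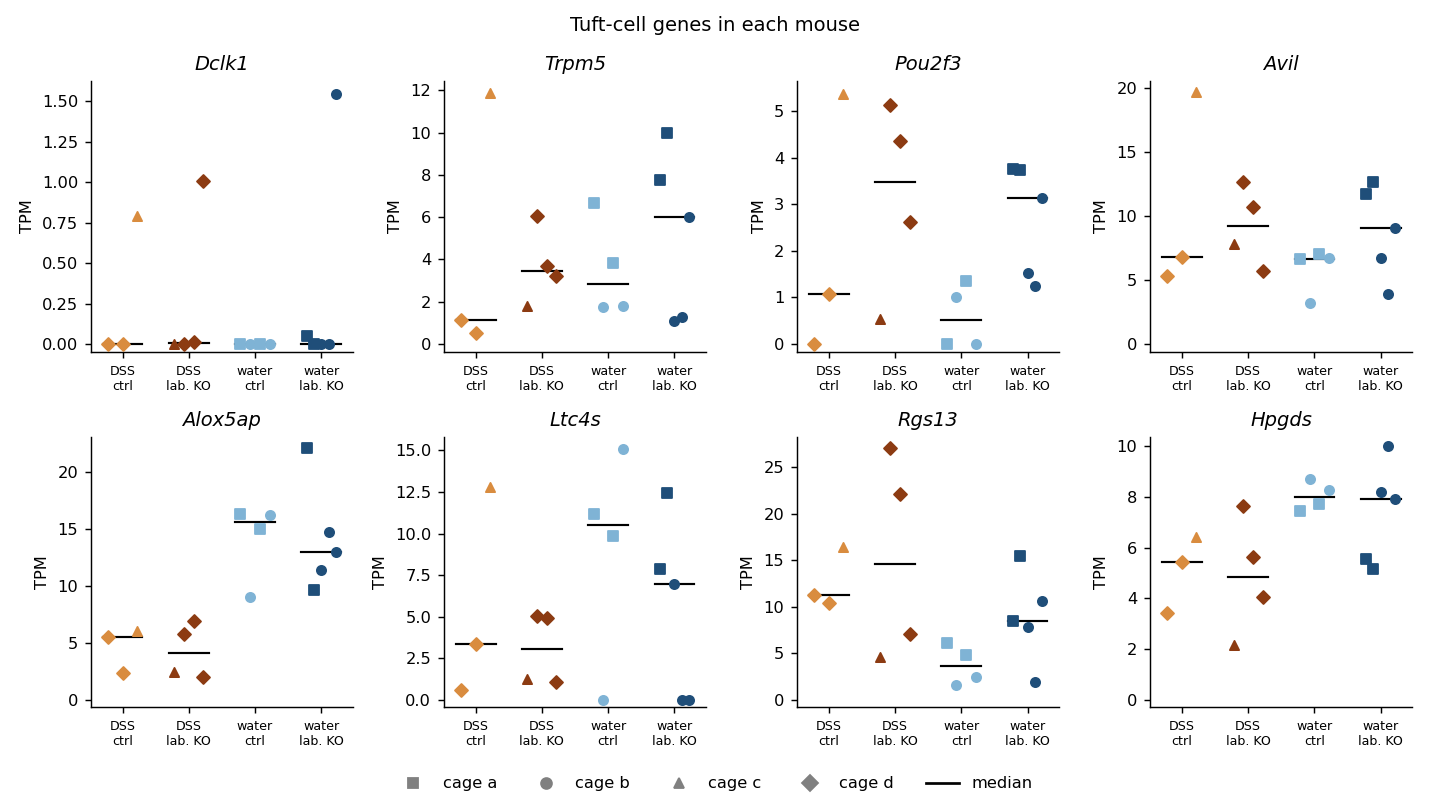
TPM (vertical axis, a scale for each gene) of the 8 matched tuft-cell genes in each of the 16 mice, by group (horizontal axis); marker shapes give the cage and black lines the group medians. *Alox5ap* lies at 2.00 to 6.88 TPM in every DSS mouse and at 9.06 to 22.2 TPM in every water mouse, while *Trpm5* and *Avil* reach their highest values, 11.9 and 19.7 TPM, in 1 DSS control.

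The first comparison asked whether the epithelial Tnfr2 genotype went with a change in the tuft-cell genes. By limma with Benjamini-Hochberg adjustment over all genes, 0 of 7 tested members were called after DSS and 0 of 7 on water, beside 0.00918% of 10899 and 0.00905% of 11046 genes. Those shares are 1 gene in each table, *Tra2a* after DSS and *Dus2* on water, named here after their values were seen. At an unadjusted p under 0.05 there were 0 of 7 members after DSS, beside 2.65% of genes, and 1 of 7 on water, *Pou2f3*, beside 5.28%. Without water labelled knockout 4 that count was 3 of 7, with *Rgs13* and *Avil*, with cage as a covariate it was 2 of 7, with *Rgs13*, and among the 5 members averaging 5 TPM or more it was 0, and none of these passed the adjusted test. The median difference of the 7 members was -0.04 after DSS and 0.28 on water, beside 0.02 and 0.00 over all genes tested. *Trpm5*, *Pou2f3*, *Avil* and *Rgs13* had the higher mean log2(TPM + 1) in the water labelled knockouts. *Ltc4s* (-0.79), *Hpgds* (-0.14) and *Alox5ap* (-0.01) had the lower one there, so the members had no common direction. None of them passed the adjusted test.

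After DSS the genotype difference had opposite signs in the 2 cages. In cage c, which held DSS control 3 and DSS labelled knockout 1, the 7 members tested were lower in the labelled knockout, by between 1.05 (*Alox5ap*) and 2.62 (*Ltc4s*) on the log2(TPM + 1) scale. In cage d, with 2 controls and 3 labelled knockouts, all 7 had the higher mean in the labelled knockouts, by between 0.22 (*Alox5ap*) and 1.77 (*Pou2f3*). *Trpm5* did not overlap there, at 0.513 and 1.14 TPM in the controls against 3.24 to 6.03 TPM, nor did *Pou2f3*, at under 0.001 and 1.07 TPM against 2.62 to 5.13 TPM. Those are 2 of the 7 tested members, beside 11.9% of 10899 genes with every labelled knockout of cage d above both controls. *Trpm5* and *Pou2f3* had r = 0.83 with each other across the DSS mice, so they do not count as separate results. With 1 mouse a genotype in cage c the cage and the mouse cannot be told apart, and the difference between cages was not tested.

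The wider tuft-cell genes gave the same count. Of the study's own list of 8 tuft-cell genes 4 were tested in each table and none was called, with 0 under an unadjusted p of 0.05 after DSS and 2 on water, *Pou2f3* and *Gnat3*, both higher in labelled knockouts. Of the taste-type signalling list (led in mean level by *Itpr3*, *Plcg2*, *Gng13* and *Plcb2*) 6 genes were tested after DSS and 7 on water, and of the list of tuft regulators and the type 2 circuit (*Il13ra1*, *Sox4*, *Il4ra* and *Spib*) 5 and 6 genes. None of them was called by limma, and unadjusted p under 0.05 came from *Il4ra* after DSS (0.50 ± 0.20) and from *Gnat3*, the taste G protein subunit, on water (0.56 ± 0.24), named after its value was seen. The eicosanoid synthesis list (*Hpgd*, *Lta4h*, *Ptgs2* and *Pla2g4a*) had 7 and 8 genes tested with none called and none under an unadjusted p of 0.05. Of 14 other tuft-cell markers tested in each table none was called, and *Lrmp*, named after its value was seen, was under an unadjusted p of 0.05 on water (-1.13 ± 0.49). *Gfi1b*, *Chat* and *Il25*, which are also tuft-cell genes, stayed under the mean of 1 TPM in both tables.

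The treatments were compared by level alone. Between controls, every DSS mouse lay below every water mouse for 2 of the 7 members averaging 1 TPM or more, *Alox5ap* and *Hpgds*, beside 8.24% of 11273 genes, and above for 1, *Rgs13*, beside 30.9%. Between labelled knockouts it was *Alox5ap* below, beside 10.1% of 11196 genes, and no member above, beside 31.5%. Over all 7 DSS and 9 water mice it was again *Alox5ap* below, beside 4.16% of 11247 genes, and no member above, beside 18.9%. The log2 ratio of mean TPM + 1, DSS over water, was -1.42 in controls and -1.53 in labelled knockouts for *Alox5ap*, -0.57 and -0.51 for *Hpgds*, -0.61 and -0.67 for *Ltc4s*, and 1.54 and 0.72 for *Rgs13*. The median gene stood at 0.32 and 0.28 as deposited and at 0.01 and -0.03 after a common rescaling of the 16 mice by median-of-ratios factors.

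Rescaled in that way, *Alox5ap* stood at -1.73 and -1.83, *Hpgds* at -0.88 and -0.81, *Ltc4s* at -0.96 and -0.94, and *Rgs13* at 1.22 and 0.38. *Trpm5* was at 0.28 and -0.41 as deposited and at -0.05 and -0.70 rescaled, so its sign in controls depended on the scaling. *Avil* kept its sign in controls, 0.75 and then 0.41, and not in labelled knockouts, 0.06 and then -0.26. *Pou2f3* behaved likewise, at 0.99 and 0.75 in controls and at 0.18 and -0.09 in labelled knockouts. The members outside lipid mediator synthesis had no common direction, and *Alox5ap*, *Ltc4s* and *Hpgds* had lower means after DSS under each scaling.

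The wider tuft-cell lists were read over all mice, where as deposited 4.16% of all genes lay below and 18.9% above, and after the common rescaling 6.96% and 4.52%. Under both scalings 0 of 6 taste-type signalling genes separated the treatments. Of 5 regulators *Sox4* lay above under both (20.3 to 40.3 against 5.17 to 10.0 TPM as deposited), and *Il13ra1*, a receptor chain for IL-13 (37.2 to 51.3 against 23.4 to 32.6 TPM), lay above as deposited and overlapped once rescaled. Of 14 other tuft-cell markers, several of them shared with leukocytes, *Fyb* and *Vav1* lay below and *Cwh43* above under both. *Cd24a* lay above only as deposited and *Kctd12* below only rescaled. Relative to *Epcam* 3 of the 14 lay below, beside 11.6% of all genes, and 0 above, beside 1.05%. *Fyb*, *Vav1* and *Cwh43* were named after their values were seen, and *Cd24a*, *Ptpn18*, *Kctd12* and *Inpp5j* had the highest means.

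**Figure D2:**
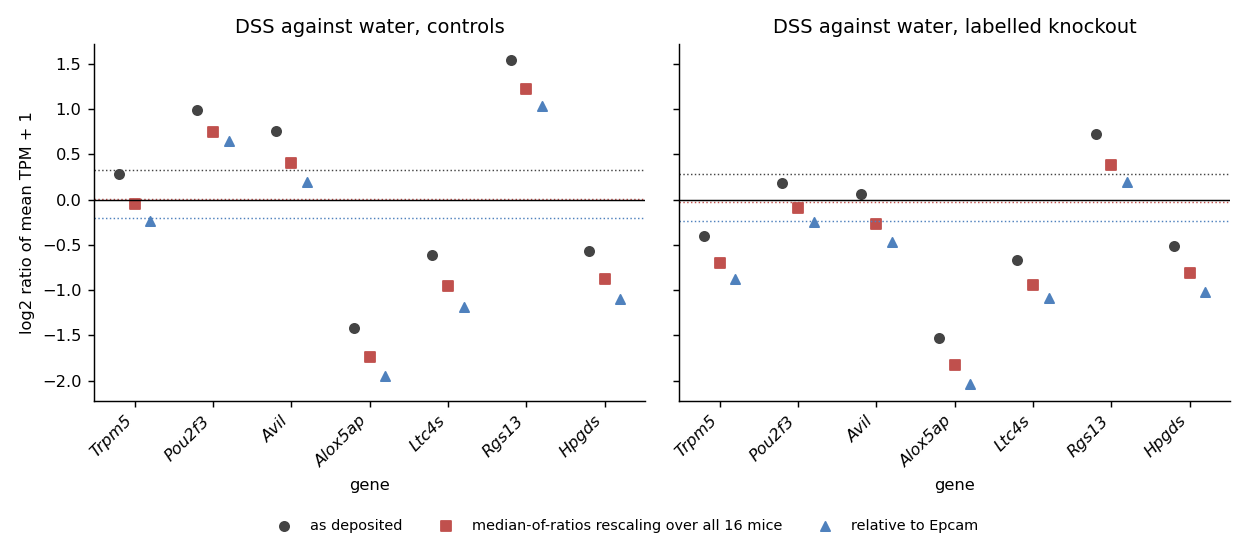
Log2 ratio of mean TPM + 1, DSS over water (vertical axis), of 7 tuft-cell genes (horizontal axis) in controls and in labelled knockouts, as deposited, after a common rescaling of the 16 mice, and relative to *Epcam*; dotted lines mark the median of all genes in the matching colour. *Alox5ap* lies lowest in both panels, at -1.42 and -1.53 as deposited, and *Rgs13* highest, at 1.54 and 0.72.

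Leukocyte genes moved with *Alox5ap* between the treatments. *Cd52* was at 3.65 to 20.5 TPM after DSS and 50.8 to 238 TPM on water, and *Cd68* at 1.56 to 5.82 and 41.7 to 96.9 TPM. Every DSS mouse lay below every water mouse for 11 of the 12 leukocyte genes averaging 1 TPM or more (median log2 ratio -3.76) and for 8 of 8 macrophage genes (-5.28). The summed TPM of the 14 leukocyte genes was 31.2 to 94.2 after DSS and 995 to 1893 on water, and that of the 8 macrophage genes 18.1 to 62.9 and 1164 to 2571. Macrophages are known to make *Alox5ap*, *Ltc4s* and *Hpgds*, and their part in the lower levels after DSS was not tested. In bulk samples fewer cells of a type and less RNA per cell cannot be told apart. Of the eicosanoid synthesis list, 1 of the 8 genes averaging 1 TPM or more lay below in every DSS mouse: *Tbxas1*, the thromboxane synthase gene of macrophages and platelets, at 0 to 0.0686 TPM after DSS and 4.71 to 15.2 TPM on water. *Alox5*, the 5-lipoxygenase gene of tuft cells and leukocytes, was at 0 to 4.39 and 3.21 to 8.29 TPM, and both were named after their values were seen.

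Within a table the members were set against the leukocyte level mouse by mouse. Each of the 8 members was correlated with the mean log2(TPM + 1) of the leukocyte list over the 7 DSS and over the 9 water mice, 16 correlations in all, and 0 of 8 passed an adjusted p of 0.05 in either table by exact permutation. *Alox5ap* had r = 0.80 after DSS (exact p = 0.0429, adjusted 0.659), Spearman's rho 0.75 (exact p = 0.0663), and r = 0.77 without the 2 mice farthest from the median. On water it had r = -0.23 (exact p = 0.549), rho -0.07 (exact p = 0.880) and r = 0.59 without the 2 farthest mice, so that its sign rested on those mice. *Ltc4s* had r = 0.11 (exact p = 0.792), rho 0.18 (exact p = 0.713) and, without the 2 farthest mice, r = 0.77 after DSS. On water *Ltc4s* had r = -0.51 (exact p = 0.163), rho -0.31 (exact p = 0.427) and -0.48 without them. Cages hold fewer than 6 mice, so r was not taken within them. After centring within cage *Alox5ap* had r = 0.86 after DSS (permutation p = 0.0401) and -0.06 on water. The centred values were permuted over all mice of a table and not within cage, so this p-value is approximate. Cage c has 2 DSS mice, which centring sets at equal distances from 0.

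*Hpgds* on water was correlated with the macrophage genes, a measure added after the data were seen. Every matched member was correlated with this list in both tables. The adjusted p covers those correlations and not the other lists and genes tried in its place. The r of *Hpgds* with the mean of the macrophage list was 0.94 over 9 mice (exact p = 0.00136, adjusted 0.0218), with rho 0.60 (exact p = 0.0968) and r = 0.78 without the 2 mice farthest from the median. Water labelled knockouts 1 and 2, both of cage a, held the lowest values of both measures. Centred within cage, r was 0.94 (permutation p = 0.000818, adjusted 0.0131) and rho 0.82 (permutation p = 0.0108). The centred values were permuted over all water mice and not within cage, so these p-values are approximate. With the leukocyte list in place of the macrophage list r was 0.50 (exact p = 0.165), and with a list of B and plasma cell genes -0.16.

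**Figure D3:**
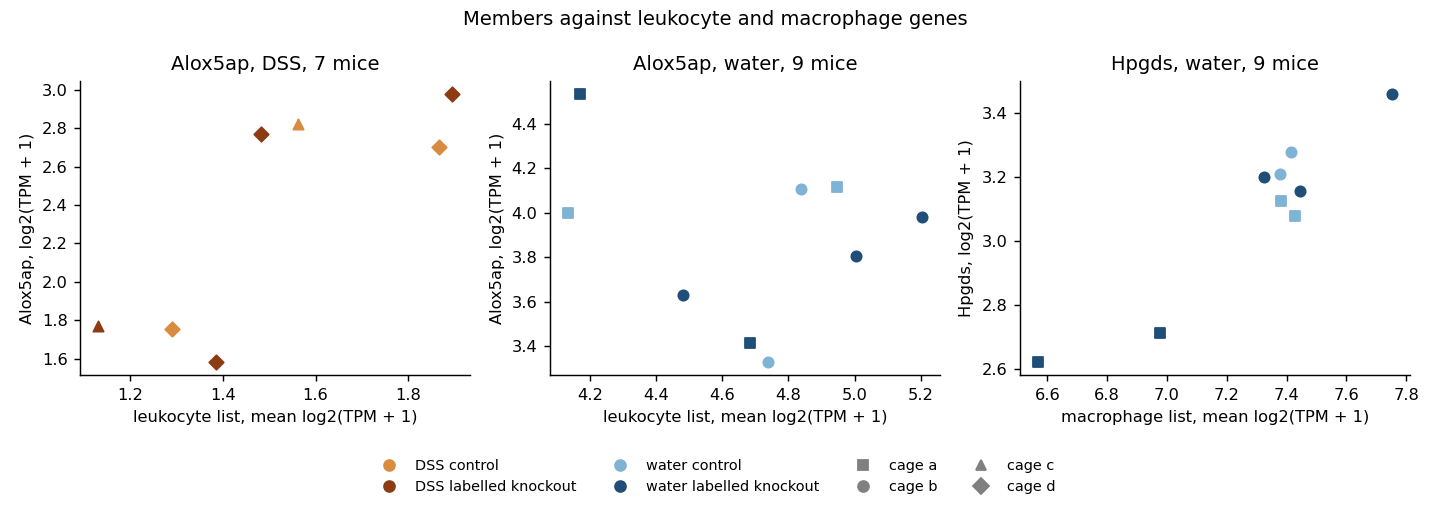
Log2(TPM + 1) of *Alox5ap* and *Hpgds* (vertical axes) against the mean log2(TPM + 1) of the leukocyte or macrophage list (horizontal axes), a point for each mouse, coloured by group and shaped by cage. The *Hpgds* points on water rise with the macrophage level (r = 0.94), with 2 labelled knockouts of cage a at the lower end, and *Alox5ap* has r = 0.80 after DSS and -0.23 on water.

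The members varied with each other from mouse to mouse. Among the 7 members other than *Dclk1*, 21 pairs were correlated in each table, 42 in all. After DSS every pair had a positive r, from 0.41 to 0.93, and *Avil* with *Ltc4s* passed the adjusted test (r = 0.93, exact p = 0.00258, adjusted 0.0361). Its rho was 0.96 (exact p = 0.00278, adjusted 0.0431), and r was 0.81 without the 2 farthest mice. On water *Avil* and *Rgs13* passed with r = 0.89 (exact p = 0.00134, adjusted 0.0281), rho 0.90 (exact p = 0.00203, adjusted 0.0431) and r = 0.77 without the 2 farthest mice. *Trpm5* and *Avil* missed it with r = 0.86 after DSS (exact p = 0.0133, adjusted 0.0730, rho 0.82) and 0.78 on water (exact p = 0.0119, adjusted 0.0730, rho 0.68). DSS control 3 was the highest DSS mouse for *Trpm5*, *Pou2f3*, *Avil* and *Ltc4s*. It was also the highest in the mean log2(TPM + 1) of 7 goblet-cell genes, at 8.75 with the other DSS mice at 6.42 to 7.30. The same held for 7 enteroendocrine genes, at 5.67 with the other DSS mice at 4.07 to 5.17. The high place of this mouse was therefore not particular to the tuft-cell genes, and how the members vary with those genes was not tested. Without DSS control 3 the *Avil* and *Ltc4s* pair had r = 0.86 and an adjusted exact p of 0.197. Leaving out any of DSS control 1 and labelled knockouts 2, 3 and 4 also took its adjusted exact p over 0.05, to between 0.0681 and 0.0974. The *Avil* and *Rgs13* pair kept r at 0.85 to 0.94 without any water mouse, with an adjusted exact p between 0.0521 and 0.0863 without controls 2 or 4 or labelled knockouts 2 or 4.

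*Hpgds* went the opposite way on water. It was negatively correlated with each of the 6 other members there, from -0.12 with *Alox5ap* to -0.87 with *Avil*, and with *Trpm5* it passed the adjusted test (r = -0.83, exact p = 0.000557, adjusted 0.0234). Their rho was -0.88 (exact p = 0.00308, adjusted 0.0431), and r was -0.83 without the 2 farthest mice. After DSS it had r = 0.53 to 0.88 with the same 6 genes, and the difference between the tables was not tested. The *Trpm5* and *Hpgds* pair had an adjusted exact p of 0.0521 to 0.0863 without the same water mice. Cage moved with these values on water: *Trpm5* was higher and *Hpgds* lower in cage a (medians 7.22 and 6.50 TPM) than in cage b (1.77 and 8.26 TPM), and the part of cage was not tested beyond the centred values. Centred within cage, *Trpm5* and *Hpgds* had r = -0.61 (adjusted permutation p = 0.142), *Avil* and *Rgs13* 0.85 (0.0633), and *Avil* and *Ltc4s* after DSS 0.95 (0.0633). These centred values too were permuted over all mice of a table, so their p-values are approximate.

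**Figure D4:**
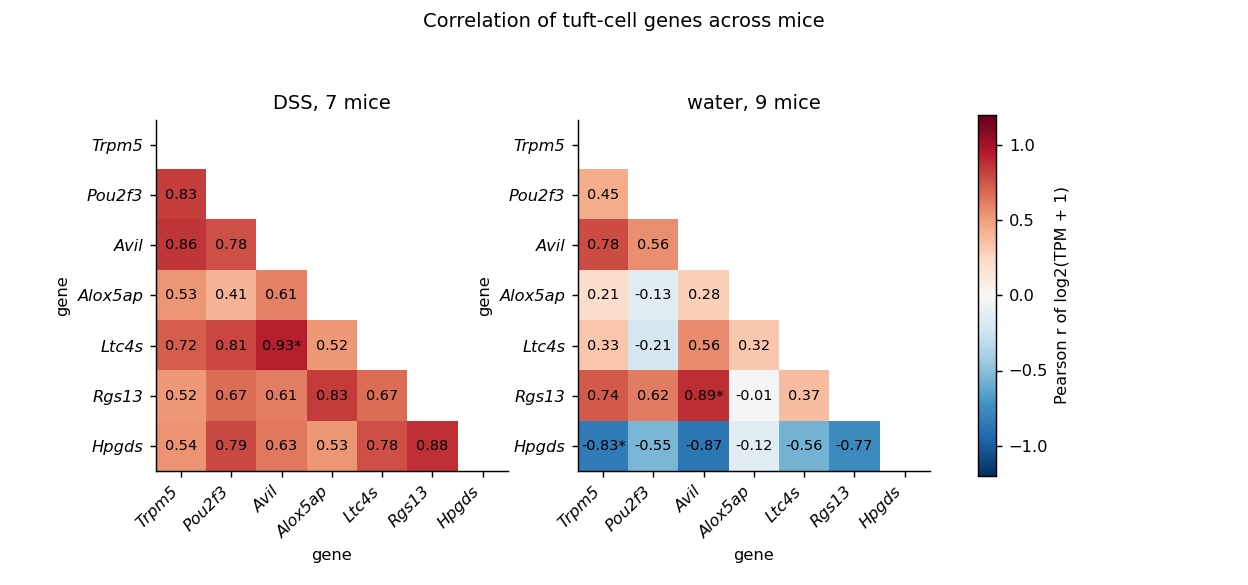
Pearson r of log2(TPM + 1) between pairs of 7 tuft-cell genes (both axes) across the 7 DSS mice and across the 9 water mice, with an asterisk at an adjusted exact permutation p under 0.05. All cells are positive after DSS, and on water the *Hpgds* row is negative, down to -0.87.

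The genes most like the members were ranked by the smaller of the water and the DSS correlations with the mean log2(TPM + 1) of the 6 members matched outside *Alox5ap* and *Ltc4s*, over 10152 genes, as a description without a test. This mean keeps *Hpgds*, which went the opposite way to the other members on water, and *Dclk1*, which was near 0 in most mice. The median gene had a smaller r of -0.21. *Sh2d7*, an SH2-domain adaptor gene, came first with 0.88, followed by *Samd14* (0.86), *Bmx* (0.86), a tyrosine kinase gene, *Adcy5* (0.85), an adenylyl cyclase gene, and *Pygl* (0.84), a glycogen phosphorylase gene. Next, with 0.76 to 0.73, came *Saysd1*, *Chrm1*, *Csk*, *Slc25a47* and *Acss1*. *Sh2d7* was at 2.06 to 13.9 TPM after DSS and 1.75 to 16.3 TPM on water. Of 30 ranked genes of the wider tuft-cell lists, 12 had a smaller r above 0 and 18 below, with a median of -0.13. Among all 10152 genes, those above 0 ranked before *Krt8*, which was just under 0 at rank 3207. Of the 30 genes, 18 stood above the median gene. *Bmx* ranked 3, *Spib* 14, *Gnat3* 15, *Cd24a* 20 and *Alox5* 34, while *Il13ra1* (-0.29), *Sox4* (-0.33) and *Il4ra* (-0.64) stood below the median gene. All points share the mouse's cage and its scaling.

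**Figure D5:**
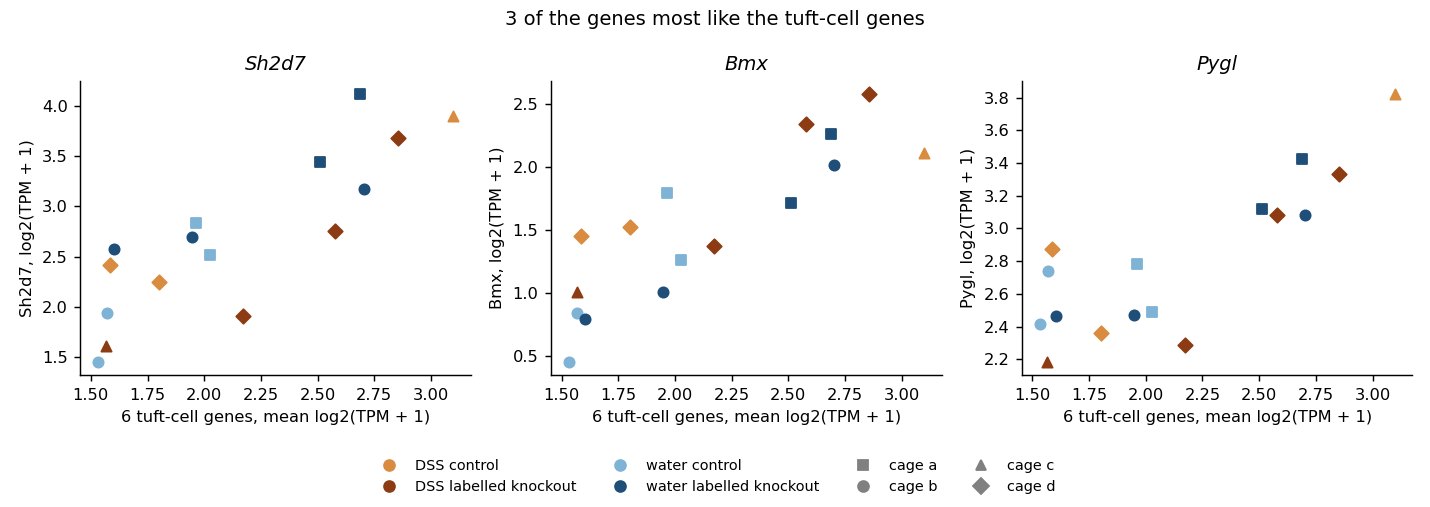
Log2(TPM + 1) of *Sh2d7*, *Bmx* and *Pygl* (vertical axes) against the mean log2(TPM + 1) of 6 tuft-cell genes (horizontal axes), a point for each of the 16 mice, coloured by group and shaped by cage. All 3 genes rise with this 6-gene mean in either treatment, with a smaller r of 0.84 to 0.88. The mean includes *Hpgds*, which was negatively correlated with the other members on water.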

How the data were processed

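RNA of EpCAM+ cells sorted from the distal colon of 16 mice was read by the authors as single 75-base reads and quantified with kallisto and sleuth (mm10 per the labels), and the deposited values are TPM per transcript in a table for each treatment. Repeated lines of a transcript were dropped (385 of 29373 lines), TPM were summed over a gene's transcripts, and summed gene values under 0.001 TPM were set to 0. The listed transcripts were all marked principal, so a gene's sum leaves out its other transcripts. TPM summed to 487469 to 861109 per mouse, and depth is unknown. Each sample was 1 mouse, and p-values measure the spread between these mice.

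Genotypes were compared within a table by limma 3.58.1 (R 4.3.3, eBayes with trend) on log2(TPM + 1) for genes averaging 1 TPM or more, adjusted over all genes by Benjamini-Hochberg with 0.05 as the threshold, so fold changes understate those of low genes. Single members were also tested by exact two-sided permutation of TPM, where 3 mice against 4 can reach 0.0286. Correlations used log2(TPM + 1) with exact permutation p-values, adjusted within their family. Values centred within cage or genotype were permuted over all mice of a table, so their p-values are approximate. Treatments were set side by side by level only. Named were the members, the genes of each list with the highest mean (up to 4), any called gene, the 10 genes most like the members, and *Tnfrsf1b*. The summed level of the germinal centre list is not reported here. The members and the lists were chosen with earlier results of these data known. On simulated data with 200 changed genes, limma recovered 26.5% of changes of 1 and 82.0% of changes of 2 on the log2 scale in the DSS design over 10899 genes, and 43.0% and 81.5% in the water design over 11046 genes. The changed genes were drawn from all tested genes, and no cage effect was simulated. The recovered shares therefore do not give the power for the members, which were low and variable. Alternatives were another pseudocount, filter or scaling, cage as a covariate, a replicate block, 1 fit over all groups and leaving out each mouse. Gene positions are from GENCODE M21 (GRCm38). Python 3.11.15 with numpy 2.4.6, pandas 2.3.3 and matplotlib 3.10.9 was used.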

Additional observations from a re-analysis of the deposited data

Results flagged for a closer look

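Within groups of 4 or 5 mice, 23 sets of values were examined for a mouse far from the rest, and 3 stood out. For normally distributed values the rule would flag about 1 in 20 sets, a rate that does not hold for genes mostly at 0, such as *Dclk1*. *Dclk1* was at 1.01 TPM in DSS labelled knockout 4 and at 1.55 TPM in water labelled knockout 5, while the other mice of those groups were at or near 0. *Avil* was at 3.21 TPM in water control 2, below the 6.61 to 7.02 TPM of the other water controls, and *Ltc4s* was listed at 0 and *Rgs13* lowest of its group, at 1.58 TPM, in the same mouse. The cause was not tested.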

How the results depend on the processing

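Of 138 counts of members under an alternative, 118 were within 1.5 times the reported count, and of 419 values of single members, 39 had another sign. The count of members called between genotypes was 0 in both tables under every alternative run. The replicate numbers did not pair the mice (correlations of same-numbered mice -0.20 to -0.03 after DSS and -0.08 to 0.09 on water), and with a replicate block 0 members were called in either table, with differences after DSS of 0.0788 for *Alox5ap*, 0.16 for *Avil* and 0.19 for *Rgs13*, and of 0.00231 for *Alox5ap* on water. With cage as a covariate *Avil* after DSS was at 0.0224 and *Alox5ap* on water at 0.0101. Without each mouse in turn the difference after DSS ranged from -0.49 to 0.0788 for *Alox5ap*, -0.36 to 0.49 for *Avil*, -0.33 to 0.15 for *Hpgds*, -1.11 to 0.47 for *Ltc4s*, -0.41 to 0.37 for *Rgs13*, 0.0161 to 1.35 for *Pou2f3* and -0.24 to 1.31 for *Trpm5*, and on water from -0.20 to 0.10 for *Alox5ap*. DSS over water in controls it ranged from -0.0487 to 1.41 for *Pou2f3* and -1.31 to 0.73 for *Trpm5*, and in labelled knockouts from -0.11 to 0.22 for *Avil* and -0.0690 to 0.45 for *Pou2f3*. Relative to *Epcam*, 2 of 7 members lay below in DSS labelled knockouts, beside 26.1% of 11196 genes. On that scale *Trpm5* in controls was at -0.24, and *Avil* and *Pou2f3* in labelled knockouts at -0.47 and -0.25. Median-of-ratios scaling gave -0.0462, -0.26 and -0.0887 for the same values. Members above in DSS controls numbered 1 to 2 without each mouse. Pairs of members past the adjusted threshold numbered 0 to 2 after DSS and 0 to 4 on water without each mouse. Alternatives chosen, like those just given for pairs, after seeing the data gave 5 pairs in each table centred within genotype, 2 after DSS and 0 on water centred within cage, and 0 after DSS with a pseudocount of 0.1. With the macrophage list 1 member passed on water, also when centred within cage, and with the B and plasma cell list *Hpgds* on water had r = -0.16. The counts after centring rest on approximate p-values. The causes of these shifts were not tested.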
